A study of Mus musculus with 4 samples.

Results

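Genes of glucose breakdown and of the response to low oxygen were followed in PVAT, the fat around the femoral artery, after wire injury. They were picked by name, as the enzymes of glycolysis and of the pentose phosphate pathway, the HIF factors with their regulators, and known HIF targets. Of the 40 names, 38 were rows among the 12661 genes deposited. *Aldoc* and *Pkm2* were not analysed here, and *Pkm2* is an older name of *Pkm*, which was.

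The tissue came from wild type C57BL/6 female mice, ovariectomized and 11 weeks old. A sham group and an injury group, each with 2 libraries, were collected 48 h after the operation, which in the injury group passed a spring wire of 0.38 mm diameter into the femoral artery. Both groups shared the ovariectomy, strain and age. It is not stated whether a library is 1 animal, so p-values measure the spread between these libraries, which may be technical. The deposited values are signed numbers without a stated unit or zero point, and are called deposited units below. They scatter around 0, with gene means over the 4 libraries from -1.15 to 2.64. They give no read depth or abundance, so levels of different genes cannot be ranked, fold changes cannot be printed, and the labelled tissue could be checked only by which marker genes are listed. Of 10 general adipocyte markers 10 are listed, and so are 7 of 12 markers of skeletal muscle and 7 of 7 of smooth muscle. In bulk tissue, fewer cells of a type and less RNA per cell cannot be told apart.

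Glycolysis splits glucose into pyruvate, which is either reduced to lactate or burned in mitochondria, and the pentose phosphate pathway runs beside it to make NADPH and ribose. HIF factors are stabilized when oxygen is low and switch on glycolytic enzymes, blood vessel growth and mitophagy genes. Activated macrophages and neutrophils also lean on glycolysis, and brown fat is a strong consumer of glucose.

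Among the 38 genes, *Hk3* and *Ldhb* rose after injury, and none fell, at an adjusted p-value under 0.05 from limma. That is 2 of 38 called higher, against 3.76% of all genes, and 0 called lower, against 3.67% (7.43% of all genes in either direction). Before adjustment, 11 members with a positive difference and 2 with a negative one (*Epas1* and *Ndrg1*) had a p-value under 0.05, where 14.8% of all genes did so upward and 14.8% downward. Both injury libraries lay above both sham libraries in 17 of the 38 (44.7%, against 31.6% of all genes) and below them in 6 (15.8%, against 30.3%). The differences were 28 positive and 10 negative, with a median of 0.26 deposited units beside 0.0085 over all genes. By role, in the glycolytic enzymes the median difference was 0.29 (15 of 17 positive) and in the pentose phosphate enzymes 0.54 (4 of 4 positive). In the PFKFB enzymes it was -0.070 (1 of 3 positive), in the HIF factors and regulators 0.0031 (3 of 5) and in the HIF targets 0.051 (5 of 9).

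**Figure D1:**
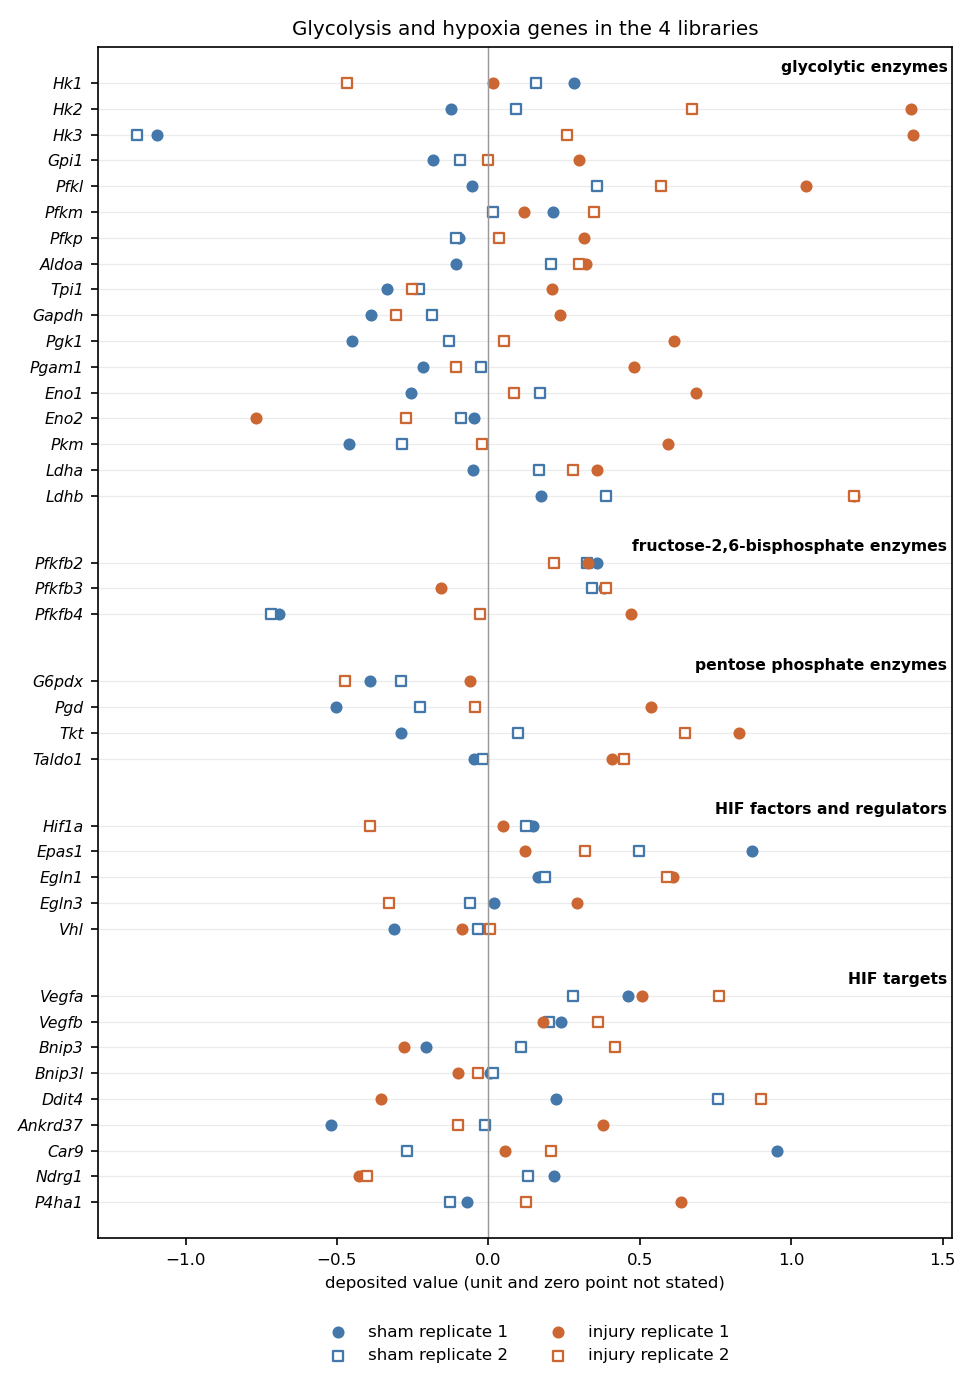
Deposited value (horizontal axis, unit and zero point not stated) of each of the 38 genes in each library, grouped by role. Both injury libraries (orange) lie above both sham libraries (blue) in 17 genes, the called *Hk3* and *Ldhb* among them, and below them in 6. In 5 of the 9 HIF targets the groups overlap.

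The hexokinases, which trap glucose in the cell as glucose-6-phosphate, gave 1 call, higher, among 3 genes (3.76% of all genes were called higher). *Hk3*, the isozyme typical of myeloid cells, was at -1.09 and -1.16 in the sham libraries and at 1.40 and 0.26 in the injury libraries. Both injury libraries were well above both sham libraries but lay far apart from each other. The difference was 1.96 (standard error 0.37, 95% interval 1.03 to 2.88, adjusted p = 0.0435 from limma). *Hk3* lies on chromosome 13 from 55107346 to 55122746 of mm9.

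*Hk2*, the inducible hexokinase of muscle and fat, was at -0.12 and 0.091 after sham operation and at 1.40 and 0.67 after injury. The groups did not overlap, and the difference of 1.05 (standard error 0.26, 95% interval 0.39 to 1.71) missed the threshold (adjusted p = 0.0702 from limma). It was called after quantile normalization of the columns (adjusted p = 0.0412 from limma) and without injury replicate 2 (adjusted p = 0.0124 from limma). Leaving out injury replicate 1 took it to 0.69 (adjusted p = 0.113 from limma), and it was not called with the replicate block or without either sham library (adjusted p = 0.0847, 0.324 and 0.186 from limma). *Hk1*, the widely expressed isozyme, was not called, with 0.28 and 0.16 after sham operation against 0.017 and -0.47 after injury. Its difference of -0.45 had a 95% interval of -0.95 to 0.054.

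Within each library, *Hk3* minus *Hk1* was -1.37 and -1.32 after sham operation and 1.39 and 0.73 after injury. *Hk2* minus *Hk1* was -0.41 and -0.067 after sham operation and 1.38 and 1.14 after injury. The group means of these contrasts differed by 2.40 and 1.50 units, with no overlap of the groups. With 2 libraries against 2 the exact permutation test cannot go below p = 0.333, which both contrasts gave (0.467 after adjustment over the 14 isozyme pairs compared, which were picked with earlier results known).

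In the middle of the pathway, from glucose-6-phosphate to the triose phosphates, no gene was called by limma, and 1, *Pfkl*, had an unadjusted p-value under 0.05. *Pfkl*, the liver-type subunit of phosphofructokinase, was at -0.055 and 0.36 after sham operation and at 1.05 and 0.57 after injury, a difference of 0.66 (95% interval 0.078 to 1.24, adjusted p = 0.136 from limma). The muscle subunit *Pfkm* overlapped between groups (difference 0.12, 95% interval -0.28 to 0.52). The platelet subunit *Pfkp* did not overlap, with a difference of 0.28 (95% interval -0.11 to 0.67). The isomerase gene *Gpi1* (0.29) and the aldolase gene *Aldoa* (0.26) also had both injury libraries above both sham libraries without passing the threshold.

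From triose phosphates to pyruvate, *Pgk1* and *Pkm* shared 1 order of the libraries. *Pgk1*, which makes the first ATP of the pathway, was at -0.45 and -0.13 after sham operation, and at 0.61 in injury replicate 1 but 0.053 in injury replicate 2. *Pkm*, the pyruvate kinase gene, was at -0.46 and -0.29 after sham operation and at 0.59 and -0.022 after injury. In both genes injury replicate 1 stood clear of the sham libraries and injury replicate 2 lay just above them. Their differences were 0.62 (95% interval 0.035 to 1.21, adjusted p = 0.152 from limma) and 0.66 (95% interval 0.075 to 1.24, adjusted p = 0.137 from limma). Without injury replicate 1 they were 0.34 and 0.35, and without injury replicate 2 both genes were called (adjusted p = 0.0472 and 0.0275 from limma).

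*Tpi1*, *Gapdh*, *Pgam1* and *Eno1* had overlapping groups, because injury replicate 2 lay within the sham range. For *Gapdh*, which is often used as a reference gene, the values were -0.39 and -0.19 after sham operation and 0.24 and -0.30 after injury. Its difference was 0.25 (95% interval -0.29 to 0.80), and -0.018 without injury replicate 1. *Eno1*, the common enolase, was at -0.26 and 0.17 after sham operation and at 0.69 and 0.086 after injury. The neuronal enolase *Eno2* had the reverse order, with -0.047 and -0.090 after sham operation and -0.77 and -0.27 after injury (difference -0.45, 95% interval -0.95 to 0.048). *Gapdh*, *Pgk1*, *Tpi1*, *Eno1* and *Ldha* have many processed copies in the genome, between which reads could have been split.

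Lactate dehydrogenase interconverts pyruvate and lactate, and its B subunit is the form of oxidative tissues. *Ldhb*, on chromosome 6 from 142438769 to 142456477 of mm9, was at 0.17 and 0.39 in the sham libraries. In the injury libraries it stood at 1.206 and 1.208, so that both injury libraries were nearly equal and high. The difference was 0.93 (standard error 0.15, 95% interval 0.56 to 1.29, adjusted p = 0.0317 from limma). For the A subunit *Ldha*, the form of anaerobic glycolysis and a HIF target, the sham values were -0.050 and 0.17 and the injury values 0.36 and 0.28. These groups did not overlap either, but the difference of 0.26 (95% interval -0.11 to 0.63) did not pass the threshold. *Ldhb* minus *Ldha* was 0.224 and 0.221 in the sham libraries and 0.85 and 0.93 in the injury libraries, a difference of 0.66 (exact permutation p = 0.333, the smallest possible).

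**Figure D2:**
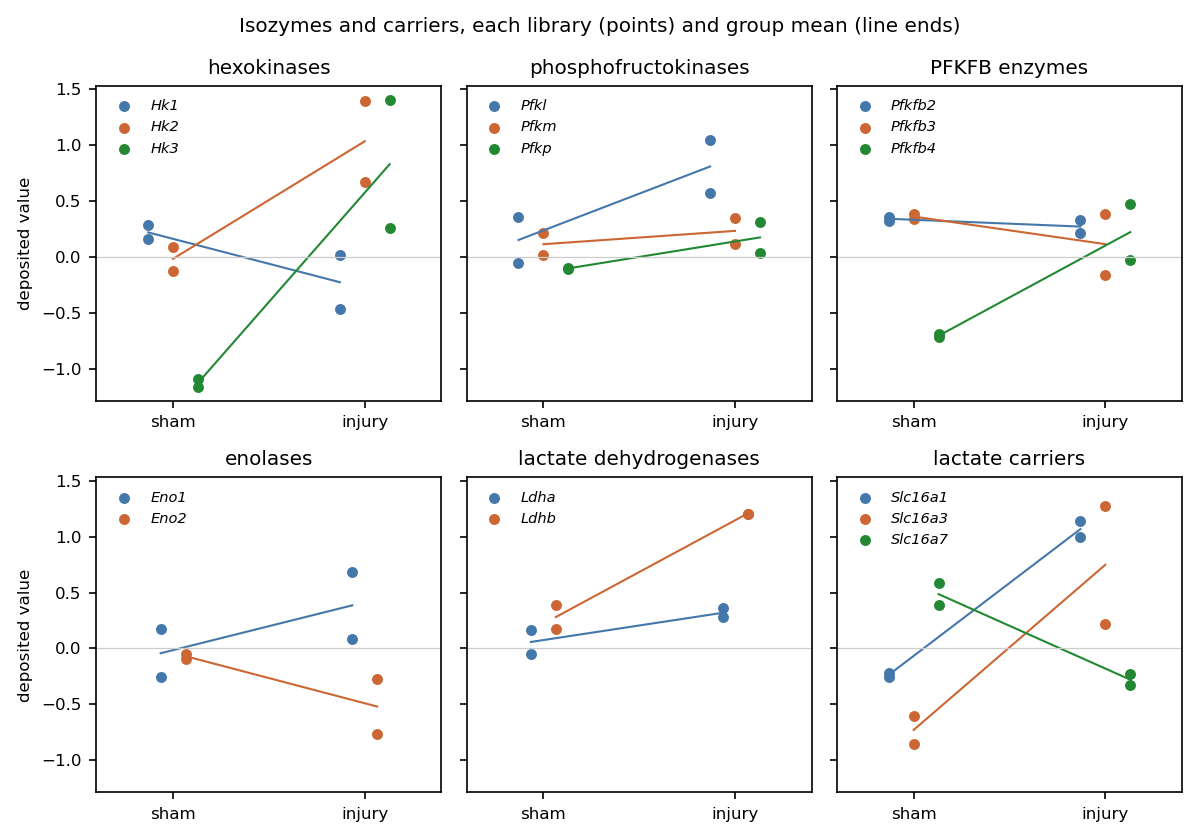
Deposited values (vertical axis) of isozymes and lactate carriers in sham and injury libraries, with points for libraries and line ends at group means. The line of *Hk1* slopes down and those of *Hk2* and *Hk3* slope up, and the *Ldhb* line is steeper than that of *Ldha*, while heights of different genes are not comparable.

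Single libraries weighed on most members. Leaving out 1 library moved the difference by over 1.5 times in 31 of the 38, and in 7 it did not, which were *Hk3*, *Ldhb*, *Pfkfb4*, *Tkt*, *Taldo1*, *Egln1* and *Ndrg1*. Beside those described gene by gene, the difference came nearest to 0 without injury replicate 1 for *Gpi1* (0.14), *Pfkl* (0.42), *Pfkp* (0.14), *Tpi1* (0.032), *Pgam1* (0.014), *Eno1* (0.13), *Eno2* (-0.20) and *Bnip3l* (-0.045). Without injury replicate 2 this was so for *Hk1* (-0.20), *Pfkm* (0.0032), *Pfkfb2* (-0.013) and *Vegfa* (0.14), and without sham replicate 1 for *Aldoa* (0.10), *Ldha* (0.15) and *Ankrd37* (0.15).

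The calls of *Hk3* and *Ldhb* held in the fit with the replicate number as a block and in each fit to all 4 libraries that was tried. Without injury replicate 1, *Hk3* was still called (difference 1.38, adjusted p = 0.0442 from limma) and *Ldhb* was not (difference 0.93, adjusted p = 0.0698 from limma). In each fit with a library left out, the group of 1 library is assumed to vary like the other group. With either sham library left out neither gene was called, and over all 12661 genes 0 and 1 genes were, although 1960 and 2553 had an unadjusted p-value under 0.05 from limma.

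The PFKFB enzymes set the level of fructose-2,6-bisphosphate, the main activator of phosphofructokinase. *Pfkfb4*, a HIF-inducible member, was at -0.69 and -0.72 after sham operation and at 0.47 and -0.027 after injury. The groups were separate, with a difference of 0.93 (standard error 0.20, 95% interval 0.43 to 1.43) just short of the threshold (adjusted p = 0.0537 from limma). It was called without injury replicate 2 (adjusted p = 0.0148 from limma) but in no other fit with a library left out (adjusted p from 0.0974 to 0.256 from limma). *Pfkfb3*, the member best known from hypoxia and inflammation, was at 0.38 and 0.34 after sham operation and at -0.16 and 0.39 after injury. Its groups overlapped (difference -0.25, 95% interval -0.77 to 0.28), as did those of *Pfkfb2* (difference -0.070). The group means of *Pfkfb4* minus *Pfkfb3* differed by 1.17 units (exact permutation p = 0.333).

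None of the 4 pentose phosphate enzymes was called by limma, and 3 had an unadjusted p-value under 0.05, all with a positive difference. In the non-oxidative branch *Tkt*, transketolase, was at -0.29 and 0.099 after sham operation and at 0.83 and 0.65 after injury. *Taldo1*, transaldolase, was at -0.047 and -0.019 against 0.41 and 0.45. Both genes had close replicates after injury, clear of the sham libraries. Their differences were 0.83 (standard error 0.18, adjusted p = 0.0549 from limma) and 0.46 (standard error 0.13, adjusted p = 0.0898 from limma), and *Tkt* was called after quantile normalization (adjusted p = 0.0490 from limma) and with columns scaled to one spread (adjusted p = 0.0474 from limma).

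In the oxidative branch *G6pdx*, which encodes the rate-limiting dehydrogenase, had overlapping values of -0.39 and -0.29 after sham operation and -0.061 and -0.47 after injury (difference 0.071, 95% interval -0.39 to 0.53). *Pgd*, the next NADPH-forming enzyme, was at -0.50 and -0.23 against 0.54 and -0.044 (difference 0.61, adjusted p = 0.157 from limma). With injury replicate 1 left out *Pgd* differed by 0.32, and with injury replicate 2 left out it was called (adjusted p = 0.0420 from limma). Of 9 further pentose phosphate genes none was called by limma, and 1, *Pgls*, had an unadjusted p-value under 0.05 (*Pgls* is named after its value was seen).

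**Figure D3:**
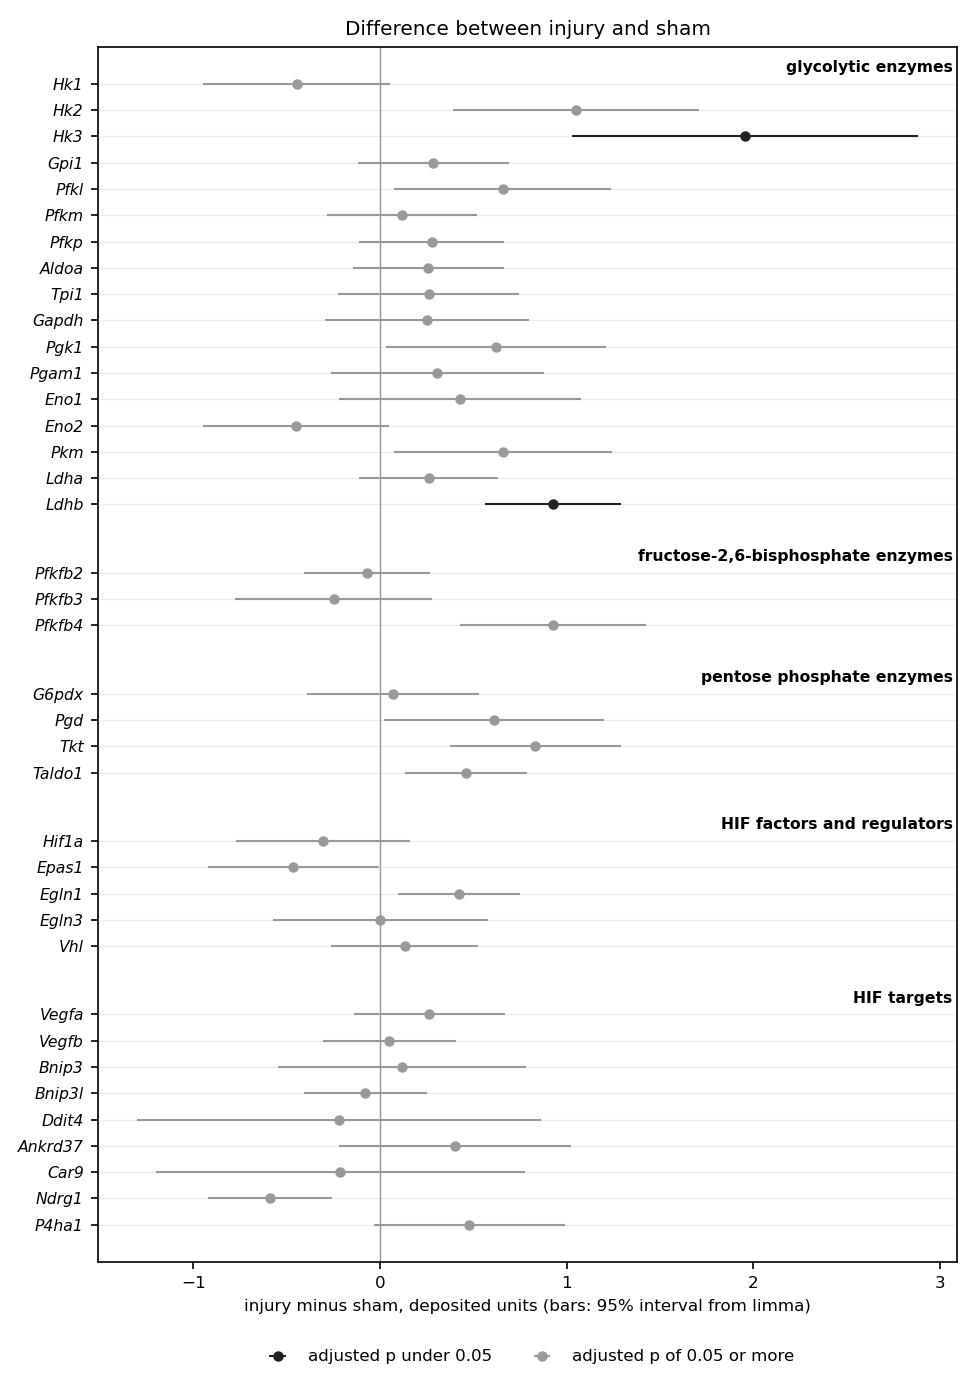
Difference of injury minus sham in deposited units (horizontal axis) with 95% intervals from limma, by role, in black where the adjusted p-value was under 0.05. The 2 black genes are *Hk3* and *Ldhb*, and the intervals of the HIF targets other than *Ndrg1* cross 0.

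The oxygen-sensing genes gave no call, with 1 member at an unadjusted p-value under 0.05 in each direction by limma (14.8% of all genes each way). *Hif1a*, the inducible HIF subunit, was at 0.15 and 0.12 after sham operation and at 0.047 and -0.39 after injury. *Epas1*, which encodes HIF-2alpha and is strong in endothelium, was at 0.87 and 0.50 against 0.12 and 0.32. For both factors the injury libraries were below the sham libraries, with differences of -0.31 (95% interval -0.77 to 0.16) and -0.46 (95% interval -0.92 to -0.0068, adjusted p = 0.165 from limma). *Hif1a* differed by -0.088 with injury replicate 2 left out and by -0.52 with injury replicate 1 left out, and the difference of *Epas1* was -0.28 without sham replicate 1. HIF protein is controlled mainly by degradation, so transcript values do not give its activity.

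*Egln1*, the main prolyl hydroxylase that marks HIF for degradation, was at 0.16 and 0.19 after sham operation and at 0.61 and 0.59 after injury. Replicates were tight and the groups separate, with a difference of 0.42 (standard error 0.13, adjusted p = 0.105 from limma). *Egln3*, a hydroxylase that HIF itself induces, had injury values of 0.29 and -0.33 around sham values of 0.018 and -0.061, a difference of 0.0031 (95% interval -0.57 to 0.58). *Vhl*, the ubiquitin ligase subunit that recognises hydroxylated HIF, overlapped too (difference 0.13).

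HIF targets outside glycolysis showed no common direction. None of 9 was called by limma, and 1, *Ndrg1*, had an unadjusted p-value under 0.05, downward (14.8% of all genes). *Ndrg1*, a stress-responsive gene, was at 0.22 and 0.13 after sham operation and at -0.43 and -0.40 after injury. Its difference of -0.59 (standard error 0.13, 95% interval -0.92 to -0.25, adjusted p = 0.0581 from limma) was the most negative of the 38 genes, with close replicates in both groups.

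*P4ha1*, a collagen prolyl hydroxylase subunit, was at -0.072 and -0.13 against 0.64 and 0.12 after injury (difference 0.48, adjusted p = 0.189 from limma). Leaving out injury replicate 1 took *P4ha1* to 0.22, and leaving out injury replicate 2 made it a call (adjusted p = 0.0464 from limma). *Vegfa*, the angiogenic factor, was at 0.46 and 0.28 against 0.51 and 0.76 (difference 0.26, 95% interval -0.14 to 0.67). These were the 2 targets whose injury libraries both exceeded both sham libraries (22.2% of 9, against 31.6% of all genes), and the mitophagy receptor gene *Bnip3l* joined *Ndrg1* in the opposite order (22.2%, against 30.3% of all genes), with a difference of -0.077.

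The other targets overlapped, and in 3 of them replicates of 1 group lay far apart. *Ddit4*, an mTOR inhibitor gene, was at 0.22 and 0.76 after sham operation and at -0.35 and 0.90 after injury. *Car9*, carbonic anhydrase IX and a classical hypoxia marker, was at 0.95 and -0.27 against 0.055 and 0.21. *Bnip3*, a mitophagy receptor gene, was at -0.21 and 0.11 against -0.28 and 0.42. The difference of *Car9* was -0.21, but 0.40 without sham replicate 1, and that of *Ddit4* was -0.22, but 0.41 without injury replicate 1. *Ankrd37* (0.40) and *Vegfb* (0.051) also overlapped.

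Promoter sequence was examined because HIF binds a short core motif, ACGTG or GCGTG, in many of these genes. The window was the 250 bases before each transcript start that RefSeq lists, and both strands were searched, so that the palindrome CACGTG counts as 2 matches. Windows were given for 35 of the 38 genes (50 windows), all but *Epas1*, *Bnip3l* and *Ndrg1*. At least 1 match was found in 40 of 50 (80.0%), beside 55.3% of the 12242 windows of genes in the deposited table and 38.6% of all 32851 windows. Known HIF targets were put on the list by choice, so this share is a description and no independent test of the motif. A gene with several listed starts counts once for each start. By role, the share was 74.1% of 27 windows (17 genes) for glycolytic enzymes and 100% of 6 (3 genes) for the PFKFB enzymes. It was 80.0% of 5 (4 genes) for pentose phosphate enzymes, 75.0% of 4 (4 genes) for HIF factors and regulators and 87.5% of 8 (7 genes) for HIF targets. A match is a string of letters and not a shown binding site, and *Tpi1*, *Gpi1*, *Eno2* and *Vhl* had none in these windows.

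The windows of 6 genes are printed 5′ to 3′ on the strand of the gene with matches on either strand in capitals, to set *Hk2* beside *Hk3*, *Ldha* beside *Ldhb*, and *Pfkfb4* beside the HIF target *Bnip3*. For *Ldha*, which has 2 listed starts, it is the window with more matches, and it lies within the gene as GENCODE annotates it. The sequences are those of RefSeq (GRCm38.p6). Each matches the mm9 position given exactly, and occurs once on that strand of that chromosome. Other chromosomes and the opposite strand were not searched.
*Hk2*, mm9 chr6:82724449-82724698, minus strand: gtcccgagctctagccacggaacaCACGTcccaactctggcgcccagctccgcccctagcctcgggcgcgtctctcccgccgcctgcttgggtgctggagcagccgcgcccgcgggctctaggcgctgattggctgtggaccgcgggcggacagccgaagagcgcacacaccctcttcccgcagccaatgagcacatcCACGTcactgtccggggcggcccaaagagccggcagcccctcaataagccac
*Hk3*, mm9 chr13:55122747-55122996, minus strand: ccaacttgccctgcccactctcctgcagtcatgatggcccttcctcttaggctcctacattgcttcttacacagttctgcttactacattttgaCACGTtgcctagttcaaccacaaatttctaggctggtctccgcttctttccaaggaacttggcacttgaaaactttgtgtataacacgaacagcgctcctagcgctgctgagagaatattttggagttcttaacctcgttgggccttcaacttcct
*Ldha*, mm9 chr7:54100924-54101173, plus strand: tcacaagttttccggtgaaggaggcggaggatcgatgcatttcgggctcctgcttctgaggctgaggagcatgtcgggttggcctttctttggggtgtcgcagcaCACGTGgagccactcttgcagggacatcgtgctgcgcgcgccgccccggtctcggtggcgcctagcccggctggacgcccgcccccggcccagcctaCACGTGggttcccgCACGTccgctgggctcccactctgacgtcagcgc
*Ldhb*, mm9 chr6:142456478-142456727, minus strand: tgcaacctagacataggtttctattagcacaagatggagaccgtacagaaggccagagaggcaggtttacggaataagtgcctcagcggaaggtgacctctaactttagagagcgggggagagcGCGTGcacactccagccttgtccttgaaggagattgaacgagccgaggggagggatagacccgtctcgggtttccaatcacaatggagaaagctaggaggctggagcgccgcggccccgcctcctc
*Pfkfb4*, mm9 chr9:108893697-108893946, plus strand: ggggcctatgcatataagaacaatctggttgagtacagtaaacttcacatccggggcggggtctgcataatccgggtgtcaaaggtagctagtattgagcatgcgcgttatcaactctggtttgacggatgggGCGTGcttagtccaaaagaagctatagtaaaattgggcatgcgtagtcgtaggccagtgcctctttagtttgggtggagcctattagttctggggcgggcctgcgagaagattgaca
*Bnip3*, mm9 chr7:146101190-146101439, minus strand: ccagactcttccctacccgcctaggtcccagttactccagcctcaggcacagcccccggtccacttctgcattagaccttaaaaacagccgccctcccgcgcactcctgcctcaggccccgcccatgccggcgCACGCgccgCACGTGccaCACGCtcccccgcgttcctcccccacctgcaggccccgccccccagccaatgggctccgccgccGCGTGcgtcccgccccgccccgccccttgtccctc

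The matches in these 6 windows, which were picked for display with the differences known, are set beside the differences as a description. *Ldha* and *Bnip3* held 5 matches each, with differences of 0.26 and 0.12 deposited units. *Hk3*, *Ldhb* and *Pfkfb4* held 1 match each, with differences of 1.96, 0.93 and 0.93. *Hk2* held 2, at 226 and 52 bases before the start, and its difference was 1.05.

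Genes that carry glucose and lactate across the membrane included further calls. Of 19 such and related genes, 2 were called higher (background 3.76%) and 1 lower (3.67%). *Slc16a1*, the lactate carrier MCT1, was at -0.25 and -0.22 after sham operation and at 1.14 and 0.997 after injury. It rose by 1.30 (standard error 0.14, adjusted p = 0.0285 from limma). *Slc16a7*, the related carrier MCT2, fell from 0.59 and 0.39 to -0.23 and -0.33, a difference of -0.77 (standard error 0.15, adjusted p = 0.0442 from limma). *Slc16a3*, the export carrier MCT4 of glycolytic cells, was at -0.85 and -0.60 against 1.28 and 0.22 (difference 1.48, standard error 0.35, adjusted p = 0.0641 from limma).

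*Slc2a3*, the glucose carrier GLUT3 of leukocytes and neurons, rose from -0.35 and -0.56 to 0.35 and 0.33 (difference 0.80, standard error 0.15, adjusted p = 0.0402 from limma). With the replicate block *Slc2a3* and *Slc16a7* were not called (adjusted p = 0.0590 and 0.0609 from limma). Without injury replicate 1 they were not called either (adjusted p = 0.0898 and 0.0845 from limma), nor was *Slc16a7* without injury replicate 2 (adjusted p = 0.0621 from limma), and without either sham library none of the 3 called carriers was. The insulin-responsive carrier gene *Slc2a4* differed by 0.54 (adjusted p = 0.0910 from limma). *Slc2a1*, the basal glucose carrier GLUT1 and a HIF target, was at -0.017 and -0.0075 against 0.53 and -0.15, so that its groups overlapped (difference 0.20, 95% interval -0.40 to 0.81). *Slc2a4*, *Slc2a1* and *Slc16a3* are named after their values were seen.

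A list of 14 genes for the mitochondrial use of pyruvate holds its carriers, pyruvate dehydrogenase and the enzymes that regulate it, and pyruvate carboxylase. The median difference was 0.45, 11 were positive and 8 had both injury libraries on top (57.1%, against 31.6% of all genes). These 8 were 5 subunit genes of the dehydrogenase complex (*Pdha1*, *Pdhb*, *Pdhx*, *Dlat* and *Dld*) and 3 genes of kinases that inhibit it, *Pdk1* (0.46), *Pdk2* (0.63) and *Pdk4* (1.25), named after their values were seen. None of the 3 kinase genes was called. The libraries of *Pdk4* lay far apart, at -0.34 and 0.33 after sham operation and at 0.65 and 1.85 after injury (95% interval of the difference 0.16 to 2.34). The carrier genes *Mpc1* (0.17) and *Mpc2* (-0.081) overlapped between groups. *Pdha1*, the catalytic alpha subunit of pyruvate dehydrogenase, was called (difference 0.79, standard error 0.16, adjusted p = 0.0499 from limma). Its call was lost under 8 of the 10 alternatives (adjusted p-value range 0.0498 to 0.265 from limma). The beta subunit *Pdhb*, named after its value was seen, was close to it (difference 0.81, adjusted p = 0.0516 from limma). None of 11 genes of gluconeogenesis and glycogen was called by limma, and their median difference was -0.044. At an unadjusted p-value under 0.05 from limma 2 of them lay upward and 1 downward, beside 14.8% of all genes each way.

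Of 37 further hypoxia response genes, 2 were called higher and 1 lower (beside 3.76% and 3.67% of all genes), with a median difference of 0.070. *Hilpda*, a hypoxia-inducible inhibitor of lipolysis that also rises in lipid-laden macrophages, went from -1.05 and -0.75 to 0.66 and 0.38 (difference 1.42, adjusted p = 0.0285 from limma). *Cxcr4*, a chemokine receptor of leukocytes, went from -1.68 and -1.17 to 1.05 and 0.16 (difference 2.03, adjusted p = 0.0339 from limma). *Nos3*, the endothelial nitric oxide synthase, fell from 1.10 and 1.03 to -0.40 and -0.23 (difference -1.38, adjusted p = 0.0285 from limma). Without injury replicate 1 *Hilpda* and *Cxcr4* were not called (adjusted p = 0.0507 and 0.0532 from limma) and *Nos3* was, and without either sham library none of the 3 was. The called genes of this list include a leukocyte and an endothelial gene. None of 13 further HIF pathway regulators was called by limma, and 1 had an unadjusted p-value under 0.05, upward (14.8% of all genes).

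Markers of other cells moved with the groups. Of 11 macrophage markers 6 were called higher (3.76% of all genes were), most of all *Ccr2*, *Fcgr1* and *Aif1*, and 10 had both injury libraries above both sham libraries (31.6% of all genes had). The median of that list was -1.20 and -1.13 in the sham libraries and 0.64 and -0.0019 in the injury libraries. Of 6 neutrophil markers 2, *Retnlg* and *Mmp8*, were called higher, with library medians of -1.40 and -0.97 after sham operation and 1.27 and 0.27 after injury. Of 9 brown adipocyte markers 6 were called higher, most of all *Cidea*, *Cpt1b* and *Letmd1*, with library medians of 0.62 and 0.89 against 1.64 and 1.73.

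Of 10 endothelial markers *Vwf*, *Pecam1* and *Erg* were called lower (3.67% of all genes were), with library medians of 0.69 and 0.63 after sham operation and -0.18 and -0.085 after injury. Of 7 smooth muscle markers 4, *Myh11*, *Cnn1*, *Acta2* and *Tagln*, were called lower, with library medians of 1.72 and 1.03 against -1.39 and -0.20. None of 7 skeletal muscle markers was called by limma (5 had an unadjusted p-value under 0.05, all downward, beside 14.8% of all genes). Their library medians were 0.78 and -0.0090 after sham operation and -0.43 and -0.41 after injury, with sham replicate 1 above sham replicate 2 in 7 of 7. Of 10 general adipocyte markers *Plin1* was called lower, while 5 differences were positive and 5 negative. Library medians of that list were 0.17 and 0.30 after sham operation and -0.081 and 0.31 after injury. Since the zero point of the values is not stated, none of them marks the absence of a cell type. The part of these cell types in the differences of *Hk3*, *Ldhb*, *Epas1* and the other members was not tested.

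The injury libraries differed between themselves in the enzymes. Injury replicate 1 was above injury replicate 2 in 14 of 17 glycolytic enzymes, by a median of 0.48, in all but *Pfkm*, *Eno2* and *Ldhb*. Over all genes this held for 48.9%, with a median of -0.0064. The gap had the same sign in macrophage markers (10 of 11, median 0.58) and neutrophil markers (6 of 6, median 1.35), and was smaller in skeletal muscle markers (5 of 7, median 0.19) and brown adipocyte markers (median 0.044). It was negative in smooth muscle markers (0 of 7 positive, median -1.14), general adipocyte markers (1 of 10, median -0.42), endothelial markers (2 of 10, median -0.087) and HIF targets (2 of 9, median -0.15). For *Ldhb* the gap was -0.0015 and for *Hk3* it was 1.14. Leaving out injury replicate 1 gave the glycolytic enzymes a median difference of 0.22, and leaving out injury replicate 2 gave 0.52. The sham libraries stood apart too. Sham replicate 1 was above sham replicate 2 in 5 of 17 glycolytic enzymes (median gap -0.19) and 0 of 4 pentose phosphate enzymes (median -0.19). It was above in 7 of 7 smooth muscle and 7 of 7 skeletal muscle markers (medians 0.72 and 0.77), with a median gap of 0.0083 over all genes.

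**Figure D4:**
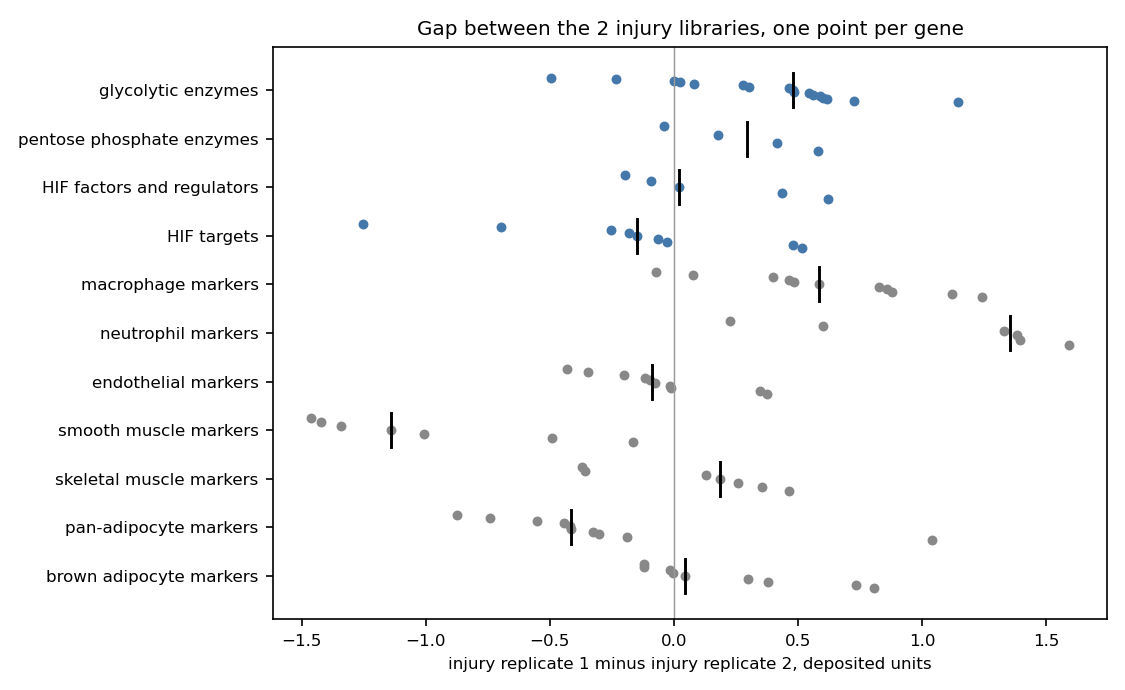
Injury replicate 1 minus injury replicate 2 in deposited units (horizontal axis), one point per gene and a black bar at the median of each list (members blue, markers grey). Glycolytic enzymes (median 0.48) sit on the same side as macrophage (0.58) and neutrophil markers (1.35), and smooth muscle markers (-1.14) and HIF targets (-0.15) on the other.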

How the data were processed

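RNA from the outer tissues of the femoral artery was sequenced by the authors in 4 libraries as paired-end reads (stranded mRNA kit, 480 ng of total RNA), trimmed, aligned to mm9 with STAR 2.6.0a and counted with featureCounts; the submitters' processing notes also name DESeq2 1.28.0. The deposited values are not counts but signed scores from -2.27 to 6.45; the step that made them, their unit, their zero point and the filter to 12661 genes are not given in the sources used here. Depth is unknown, so no counting interval is given, and no filter on low values was applied.

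Groups were compared with limma 3.58.1 in R 4.3.3 (lmFit and eBayes, group as the only term) with Benjamini-Hochberg adjustment over all genes. The test was checked on simulated data. Members, gene lists (13 beside the members) and isozyme pairs were chosen with earlier results of these data known. All members found were named. Of other lists, the called genes with the largest differences were named, at most 3 in each direction, unless stated; *Tagln* is a further one, and marker genes are given by name without values. Alternatives were a replicate block, each library left out, quantile normalization, scaled columns, a threshold of 0.1, a robust prior for the variance and a single count of rows with identical values. Tables and plots were made with pandas 2.3.3 and matplotlib 3.10.9. Coordinates of 38 members come from GENCODE on NCBIM37, the assembly of mm9.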

Additional observations from a re-analysis of the deposited data

How the results depend on the processing

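With 2 libraries a group, calls rest on variance shared across genes, and 1 library can set a value. Over all genes 941 were called by limma, 2317 at a threshold of 0.1, and 0 to 1790 with each library left out (284 without injury replicate 1, 1790 without injury replicate 2, 0 without sham replicate 1 and 1 without sham replicate 2). Each fit with a library left out, sham or injury, compares 1 library with 2, the lone one being assumed to vary like the other group. Members called higher numbered 2, and 4 after quantile normalization (*Hk2*, *Hk3*, *Ldhb*, *Tkt*), 6 at a threshold of 0.1, and 0 to 8 with each library left out (1 without injury replicate 1, 8 without injury replicate 2, namely *Hk2*, *Hk3*, *Pgk1*, *Pkm*, *Ldhb*, *Pfkfb4*, *Pgd* and *P4ha1*, 0 without either sham library). Members called lower numbered 0, and 1 (*Ndrg1*) at a threshold of 0.1.

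Median differences with each library left out ran from 0.22 to 0.52 (glycolytic enzymes), -0.086 to 0.025 (PFKFB enzymes, median -0.070 and mean 0.20), 0.40 to 0.67 (pentose phosphate enzymes), -0.31 to 0.087 (HIF factors and regulators) and -0.11 to 0.16 (HIF targets). Direction reversed in some of these fits for *Gapdh* (-0.018 to 0.52), *Pfkfb3* (-0.52 to 0.025), *G6pdx* (-0.14 to 0.28), *Egln3* (-0.31 to 0.31), *Vhl* (-0.0068 to 0.27), *Vegfb* (-0.040 to 0.14), *Bnip3* (-0.23 to 0.47), *Ddit4* (-0.84 to 0.41) and *Car9* (-0.82 to 0.40). *Egln3* also reversed after quantile normalization (-0.019) and with columns scaled to one spread (-0.015). The cause was not tested.

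With the replicate block 684 genes were called, and 2 members higher and 0 lower, the same as without it. All 38 members kept their call or lack of one. The labels do not say what a replicate number marks, and deviations of same-numbered libraries correlated at -0.094 across genes.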
